A study of Mus musculus with 13 samples.

Results

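The comparison described here set 4 injured mouse hearts that had received the CaMKIIδ editing system (IR edit) against 3 hearts after sham surgery (Sham). Its members were chosen by sample title, 7 of the 13 hearts in the series, and all 53278 genes of the count files were considered. The other 6 hearts, 3 injured without injection (IR) and 3 injured with a control virus (IR virus), served as a side-by-side measure of the injury without editing. All mice were wild-type C57Bl6 males, operated at 12 weeks of age and sampled at 17 weeks. Sham mice had neither injury nor injection. The labels give no virus type, dose, batch or time of day of harvest, and there was no uninjured group with virus or editing system. In IR edit against Sham, the injury, the virus and the editing system therefore cannot be told apart. The labels describe the hearts as separate samples and no more, so p-values measure the spread between these samples.

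In ischaemia and reperfusion (IR) a coronary vessel is closed for a time and then reopened, and part of the muscle it feeds dies. The surviving muscle cells switch on a stress programme with fetal isoforms and natriuretic peptides, and fibroblasts lay down a scar of collagens and other matrix proteins, while genes of fat oxidation tend to be lowered. CaMKIIδ is the main calcium/calmodulin-dependent kinase of heart muscle. Oxidation of its regulatory domain keeps it active, and a base editor that changes single bases of Camk2d can remove the residues that are oxidised. In whole-heart RNA, fewer cells of a type and less RNA per cell cannot be told apart.

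Total counts ran from 20634820 (IR edit 3) to 27265276 (Sham 1). Levels are given as CPM, the counts of a gene scaled to library size and composition. Transcripts of the mitochondrial genome took 31.9%, 32.2%, 37.4% and 29.7% of the counts in IR edit 1 to 4, and 34.9% to 38.5% in Sham. Cardiomyocyte markers were abundant in all 7 hearts (10 markers with a summed level of 44352 to 50300 CPM in Sham and 41872 to 49358 in IR edit), as the label "Heart" states. Lung and thymus markers were near 0, with summed levels of at most 0.491 CPM in the 7 hearts. Sham 1 stood apart from the other Sham hearts in clock genes and in macrophage markers (summed 262 CPM against 154 and 163).

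Camk2d, the target of the editing system (mm10 chromosome 3, 126596302 to 126846326, plus strand), measured 210, 225, 248 and 211 CPM in IR edit 1 to 4 and 199, 274 and 280 CPM in Sham 1 to 3. The ranges overlapped, and edgeR's quasi-likelihood test gave a log2 fold change of -0.17 ± 0.12 (SE; adjusted p = 0.49). Unless another tool is named, p-values below come from that test with Benjamini-Hochberg adjustment over all genes, and the error of a log2 fold change is its SE, with n = 4 edited and 3 Sham hearts. Gene counts do not show single-base edits, so this level says nothing of how much of the gene was edited. None of the 17 tested genes of the CaMKII and calmodulin list passed in edgeR. At an unadjusted p under 0.05, 3 were higher and 1 lower, and DESeq2 called 1 higher. Camk2n1, an inhibitor of the kinase, measured 36.1, 40.6, 34.3 and 44.6 CPM in IR edit and 25.9 to 29.8 CPM in Sham, with an adjusted p of 0.0539 (log2 fold change 0.48 ± 0.11). The groups did not overlap. Against the mean of IR and IR virus, Camk2n1 was higher by 0.59 ± 0.08 with an adjusted p of 0.00125.

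Of 15148 genes tested, 246 (1.62%) passed an adjusted p of 0.05 in IR edit against Sham: 159 were higher (1.05%) and 87 lower (0.574%) in the edited hearts. Of these, 125 differed at least 2-fold. All 246 separated the 4 edited from the 3 Sham hearts without overlap, as did 16.5% of all genes tested (8.33% higher and 8.21% lower). The median log2 fold change over all genes was -0.00. Set side by side, IR against Sham gave 115 genes of 14963 (0.769%; 88 higher, 0.588%, and 27 lower, 0.180%) and IR virus against Sham 203 of 15061 (1.35%; 158 higher, 1.05%, and 45 lower, 0.299%). These comparisons use the same Sham hearts. In a fit of all 13 hearts the counts of IR and IR virus fell to 2 genes each, and with 1 heart left out they ran from 12 to 198 and from 18 to 254. The count for IR edit fell to 68, 46 and 37 genes without Sham 1, 2 or 3, and to 48 and 94 without IR edit 2 or 4. Without IR edit 3 it rose to 1346. For IR edit the fit of all 13 hearts gave 1257 genes, and DESeq2 gave 1006.

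Part of the cardiac stress list was higher in the edited hearts than in Sham. Of 20 tested, 9 rose (Nppa, Myh7, Acta1, Ankrd1, Ankrd23, Rcan1, Hspb1, Nrap and Mybpc2), none fell and 11 did not pass. All 20 had a positive log2 fold change, with a median of 0.89 beside -0.00 for all genes. Nppa, the atrial natriuretic peptide (chromosome 4, 148000722 to 148002079, mm10), measured 98.9, 304, 55.9 and 422 CPM in IR edit 1 to 4 and 23.7, 26.5 and 13.2 CPM in Sham. The lowest edited heart, IR edit 3, was still above every Sham heart, and IR edit 2 and 4 exceeded every injured heart without editing (74.4 to 167 CPM). The log2 fold change was 3.38 ± 0.65 (adjusted p = 0.0407), beside 2.56 ± 0.29 in IR and 2.82 ± 0.20 in IR virus. Nppa is also an atrial gene. The 9 tested atrial markers, Nppa among them, had median log2 differences from Sham of -0.09, 1.18, -0.27 and -0.78 in IR edit 1 to 4. The unedited injured hearts had 0.72 to 1.48. Sham 1 to 3, each set against the mean of the other Sham hearts, had 0.49, 0.58 and -0.91. The summed level of the atrial markers, which includes Nppa, was 264, 498, 251 and 545 CPM in IR edit and 212 to 282 CPM in Sham. The part of atrial tissue in the Nppa result was not tested.

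Myh7, the slow myosin heavy chain of the fetal ventricle, measured 523, 1952, 499.6 and 2002 CPM in IR edit and 202, 182 and 144 CPM in Sham. Again IR edit 2 and 4 were high, while 1 and 3 lay within the range of the unedited injured hearts (319 to 829 CPM). The log2 fold change was 2.82 ± 0.52 (adjusted p = 0.0335). Acta1, skeletal alpha-actin, measured 352, 1036, 159 and 1056 CPM in IR edit and 45.5, 123 and 43.8 CPM in Sham (log2 fold change 3.20 ± 0.67, adjusted p = 0.0479). IR edit 3 was the edited heart nearest to Sham, and no heart overlapped. Acta1 is also a skeletal muscle marker. Of 14 such markers 6 were high enough to test and 2, Acta1 and Mylk2, rose, with a summed level of 957, 1544, 729 and 1552 CPM in IR edit and 599 to 741 CPM in Sham, and the part of that tissue was not tested.

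Ankrd1, a stretch-responsive cofactor of the sarcomere and nucleus, measured 3083, 6313, 2649 and 7536 CPM in IR edit and 782, 1039 and 1037 CPM in Sham, a log2 fold change of 2.36 ± 0.36 (adjusted p = 0.0185). Rcan1, an inhibitor and target gene of calcineurin, measured 124, 241, 90.9 and 249 CPM in IR edit and 39.4, 56 and 54.3 CPM in Sham (1.82 ± 0.33, adjusted p = 0.0335). Both were also higher in the edited than in the unedited injured hearts, by 0.97 ± 0.24 for Ankrd1 (adjusted p = 0.0368) and by 1.22 ± 0.22 for Rcan1 (adjusted p = 0.00791), in a test of the 10 injured hearts in which 680 of 15499 genes (4.39%) passed, 367 higher (2.37%) and 313 lower (2.02%). These were the 2 stress genes of 20 that passed there, and none was lower. With 1 injured heart left out the count ran from 1 to 3, except for 8 without IR edit 3. For Nppa the difference between edited and unedited injured hearts was 0.69 ± 0.42 (adjusted p = 0.418), for Myh7 0.97 ± 0.37 (0.174) and for Acta1 1.03 ± 0.38 (0.16). The stress calls against Sham fell from 9 to 0 without any 1 of the Sham hearts, to 1 without IR edit 2 or 4, and rose to 15 without IR edit 3.

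**Figure D1:**
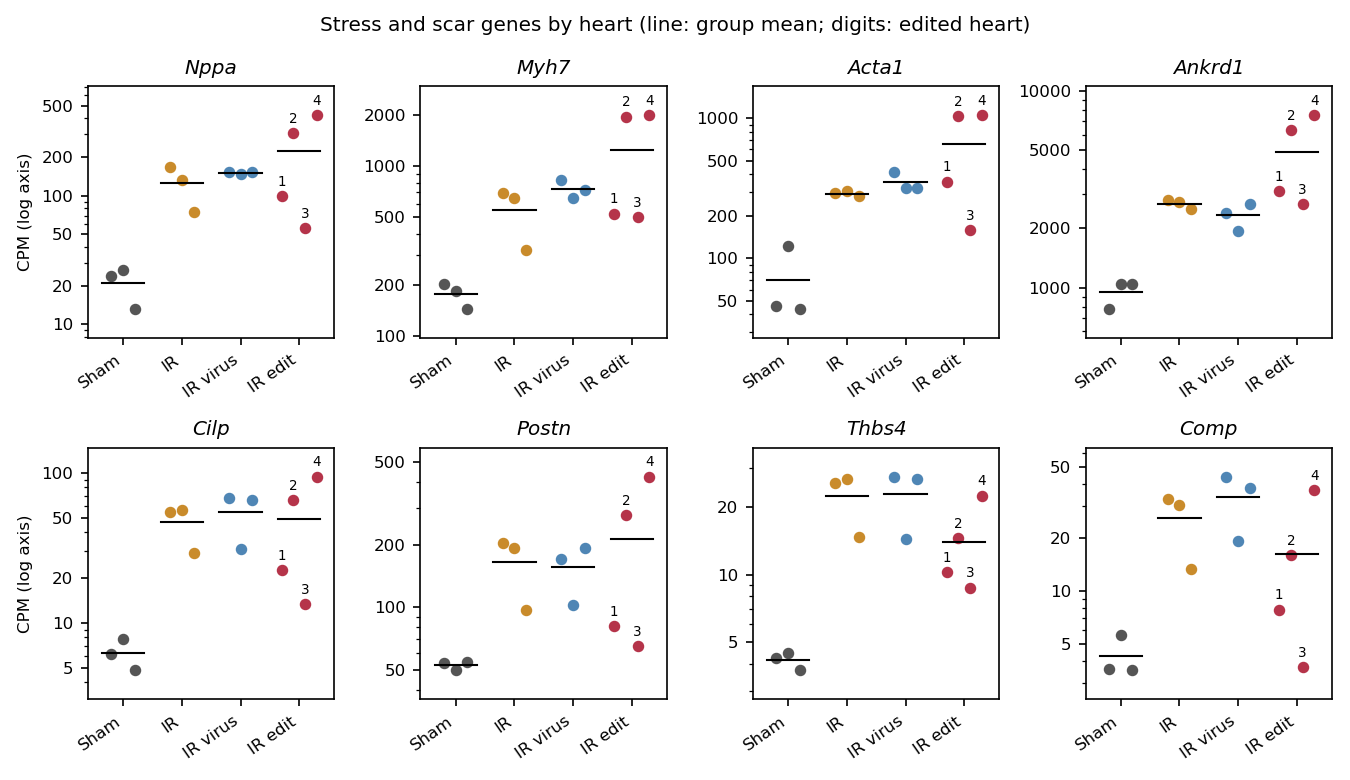
Levels of 4 stress genes (top) and 4 scar genes (bottom) in all 13 hearts, in CPM on a log axis. Each point is 1 heart, lines are group means and digits name the edited hearts. IR edit 2 and 4 lie highest within the edited group for all 8 genes and IR edit 3 lowest, down to 3.67 CPM of Comp, within the Sham range.

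Scar genes varied widely between the edited hearts, and a minority passed. Of 45 tested genes of activated fibroblasts and scar, 7 rose (Cilp, Thbs1, Thbs4, Fbn1, Eln, Ckap4 and Mmp14), none fell and 38 did not pass, with a median log2 fold change of 1.09. DESeq2 called 21 higher and 1 lower. In edgeR 21 of 45 rose in IR against Sham and 27 of 45 in IR virus, where the medians were lower, at 0.80 and 0.95. Whether these counts differ between groups was not tested. Cilp, a matrix protein of injured heart fibroblasts, measured 22.3, 65.5, 13.2 and 94.3 CPM in IR edit and 6.19, 7.75 and 4.83 CPM in Sham. All edited hearts were above Sham, and IR edit 1 and 3 were below the lowest unedited injured heart (29.3 CPM). The log2 fold change was 2.96 ± 0.62 (adjusted p = 0.0479), beside 2.90 ± 0.25 in IR and 3.12 ± 0.28 in IR virus.

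Thbs4, a thrombospondin of stressed muscle and matrix, measured 10.2, 14.6, 8.75 and 22.6 CPM in IR edit and 4.23, 4.48 and 3.74 CPM in Sham (log2 fold change 1.76 ± 0.30, adjusted p = 0.0311). The unedited injured hearts held 14.4 to 27.5 CPM, and the difference of -0.68 ± 0.26 from them did not pass (adjusted p = 0.181). Thbs1, a related thrombospondin that activates TGF-beta, measured 30.3, 70.7, 31.4 and 90.1 CPM in IR edit and 12.7, 19.6 and 10.8 CPM in Sham (1.95 ± 0.40, adjusted p = 0.0454). Fbn1, the fibrillin of elastic microfibrils, measured 175, 258, 142 and 280 CPM in IR edit and 61.5, 94.5 and 97 CPM in Sham (1.34 ± 0.25, adjusted p = 0.0335). For these 2 genes IR edit 1 and 3 lay together and IR edit 2 and 4 above them, with no overlap with Sham.

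Postn, the periostin of activated fibroblasts, did not pass. It measured 81, 278, 64.9 and 426 CPM in IR edit against 54, 49.8 and 54.6 CPM in Sham (log2 fold change 2.01 ± 0.58, adjusted p = 0.101). The 4 edited hearts were all above Sham, yet they spanned a 6.55-fold range. Comp, a cartilage and scar matrix protein, measured 7.83, 15.9, 3.67 and 37.2 CPM in IR edit against 3.63, 5.6 and 3.55 CPM in Sham (1.93 ± 0.65, adjusted p = 0.137), and here IR edit 3 lay within the Sham range. The scar calls fell to 0 without any 1 of the Sham hearts or without IR edit 2, to 1 without IR edit 4, and rose to 30 without IR edit 3. The fibroblast markers had summed levels of 2307, 2475, 1897 and 2780 CPM in IR edit, 1681 to 1801 CPM in Sham and 2025 to 2887 CPM in the unedited injured hearts, with none of the 10 called in edgeR and 5 higher at an unadjusted p under 0.05. The markers moved with the scar genes, but Dcn and Lum are members of both lists, and Col1a1, Col1a2 and Col3a1 are also on the collagen list. The part of fibroblast markers in the scar result was not tested.

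A few collagens were higher. Of 26 chains tested, 4 rose (Col4a1, Col4a2, Col4a4 and Col22a1) none fell and 22 did not pass, with a median log2 fold change of 0.89. DESeq2 called 18 of 26 higher. In edgeR 8 of 26 rose in IR and 10 of 26 in IR virus, with lower medians of 0.51 and 0.78. Col4a1, a basement membrane collagen, measured 679, 767, 462 and 812 CPM in IR edit and 290, 422 and 329 CPM in Sham (0.97 ± 0.19, adjusted p = 0.0446). Col22a1, a collagen of tissue junctions, measured 2.89, 4.26, 2.28 and 3.56 CPM in IR edit and 0.755, 0.732 and 1.04 CPM in Sham (1.95 ± 0.27, adjusted p = 0.0127). It was higher than in unedited injured hearts (0.78 to 2.11 CPM) by 1.20 ± 0.21 (adjusted p = 0.00631), and the 4 edited hearts did not overlap with them. The main collagens of scar, named after their values were seen, did not pass: Col1a1 had a log2 fold change of 1.10 ± 0.25 (adjusted p = 0.0599) and Col3a1 one of 0.78 ± 0.18 (0.0599). In the TGF-beta and activin list 2 of 26 rose: Inhbb, a chain of activin B, by 1.23 ± 0.24 (adjusted p = 0.0422), and Pmepa1, a feedback inhibitor of TGF-beta signalling, by 1.19 ± 0.24 (adjusted p = 0.0454). The collagen calls numbered 0 or 1 without any 1 of the Sham hearts or without IR edit 2 or 4, and 18 without IR edit 3.

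A few matrix and macrophage genes were lower in the edited than in the unedited injured hearts. These genes were picked out after their values were seen. In the scar list 4 of 45 were lower (Thbs2, Fbln1, Fmod and Ogn) and 1 higher (Ckap4), and in the macrophage and monocyte list 3 of 24 were lower (Ccr2, Gpnmb and Spp1) and none higher, beside 2.02% of all genes lower. Fmod, the collagen-binding fibromodulin, measured 6.6, 4.03, 4.04 and 7.2 CPM in IR edit, 3.55 to 5.25 CPM in Sham and 7.37 to 22.4 CPM in unedited injured hearts, a difference of -1.35 (adjusted p = 0.0192) from the last. Spp1, the osteopontin of injury macrophages, measured 0.816, 0.538, 0.466 and 1.78 CPM in IR edit, 0.172 to 0.71 CPM in Sham and 1.34 to 4.16 CPM in unedited injured hearts (-1.59, adjusted p = 0.0412). Gpnmb, a lysosomal glycoprotein of lipid-laden macrophages, measured 1.15, 2.15, 1.35 and 1.54 CPM in IR edit, 0.71 to 1.7 CPM in Sham and 2.56 to 5.37 CPM in unedited injured hearts (-1.49). The edited hearts overlapped with Sham for all 3 genes. The 8 macrophage markers had a summed level of 226, 219, 163 and 223 CPM in IR edit and 176 to 200 CPM in unedited injured hearts. With 1 injured heart left out, the scar genes lower than in unedited hearts numbered from 2 (without IR 1 or IR edit 2) to 8 (without IR edit 4).

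Genes of fat oxidation and the respiratory chain were slightly lower than in Sham in nearly every case, and 1 passed in edgeR. Of 34 genes of fatty acid uptake and oxidation, 33 had a negative log2 fold change (median -0.31), and Slc27a1, a fatty acid transporter, fell: it measured 60.4, 41.9, 56 and 44.4 CPM in IR edit and 75.8, 80.2 and 77.9 CPM in Sham (-0.62 ± 0.12, adjusted p = 0.0415). All 25 genes of the TCA cycle and all 42 nuclear-encoded respiratory chain subunits had negative values, with medians of -0.23 and -0.18. None of either list passed in edgeR, while 14 and 12 were lower at an unadjusted p under 0.05 and DESeq2 called 2 and 0. Of the 34 fat oxidation genes, 21 were lower at an unadjusted p under 0.05 and DESeq2 called 7 lower. In each heart, the genes of fat oxidation below all Sham hearts numbered 26, 31, 11 and 30 of 34 in IR edit 1 to 4, and 17 to 23 in the unedited injured hearts. Over all 15148 genes 26.5%, 30.1%, 25.5% and 32.6% lay below every Sham heart in IR edit 1 to 4, so the 11 of 34 in IR edit 3 (32.4%) were near that share. Without IR edit 3, 21 of the 34 passed, and none did without IR edit 2 or 4 or without any 1 of the Sham hearts. IR edit 3 had the highest mitochondrial share of counts of the 4 edited hearts, and the part of that share in these medians was not tested. The medians of the fat oxidation list by heart were -0.34, -0.49, -0.06 and -0.54. Cardiomyocyte markers had medians of -0.10, -0.14, 0.07 and -0.25 in the same hearts, and fibroblast markers 0.31, 0.49, 0.10 and 0.58. Their part was not tested either. Pfkfb1, an enzyme that sets the level of a glycolysis activator, measured 7.86, 4.44, 12.5 and 3.48 CPM in IR edit and 25.8, 21.1 and 24.4 CPM in Sham (-1.77 ± 0.33, adjusted p = 0.0385), and Pfkp, a phosphofructokinase, rose by 1.03 ± 0.18 (adjusted p = 0.0335).

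Inflammatory and cell cycle genes gave few calls in edited hearts against Sham. None of 24 macrophage and monocyte genes passed in edgeR (1 higher and 3 lower at an unadjusted p under 0.05, and 1 lower in DESeq2), and none of 27 interferon-stimulated genes passed (0 at an unadjusted p under 0.05 and 0 in DESeq2). Of 18 chemokines and cytokines 1 fell in edgeR, the eosinophil attractant Ccl11 (2 higher and 5 lower at an unadjusted p under 0.05, and 1 higher and 2 lower in DESeq2). Ccl11 was low, with 8 to 32 counts in the edited hearts. Its log2 fold change was -1.96 in IR edit, beside -0.88 in IR and -1.19 in IR virus, which did not pass. None of 25 proliferation genes passed in edgeR, while their median log2 fold change was 0.52, with 9 higher and 2 lower at an unadjusted p under 0.05 and 1 higher in DESeq2. By heart that median was 0.53, 0.92, -0.22 and 0.85 in IR edit 1 to 4, so IR edit 3 alone of the 4 lay below the Sham mean.

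Cells switch on immediate early genes within minutes of a stimulus, and many of these genes encode transcription factors. Of 28 tested, 8 rose (Nr4a1, Nr4a3, Fosl2, Fos, Atf3, Klf4, Maff and Arc), none fell and 20 did not pass, with a median log2 fold change of 0.75. In edgeR none passed in IR or in IR virus against Sham, where 9 and 5 were higher and 2 and 0 lower at an unadjusted p under 0.05. Against the mean of IR and IR virus, 15 of 28 were higher and 1 lower. Many of these genes respond to the cyclic AMP response element, whose core is TGACG. The promoters of Nr4a1 and Nr4a3, orphan nuclear receptors, are shown because they hold 4 copies each of TGACG, on either strand and in capitals, in the 250 bases before the RefSeq start (GRCm38.p6). They lie at chr15:101266596-101266845 on the plus strand for Nr4a1 and at chr4:48045055-48045304 on the plus strand for Nr4a3.
Nr4a1: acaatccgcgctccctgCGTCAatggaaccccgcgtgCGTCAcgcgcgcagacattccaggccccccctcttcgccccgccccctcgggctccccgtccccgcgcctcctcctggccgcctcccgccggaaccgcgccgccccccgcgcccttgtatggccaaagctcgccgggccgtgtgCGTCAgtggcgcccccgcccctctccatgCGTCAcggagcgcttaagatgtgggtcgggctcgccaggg
Nr4a3: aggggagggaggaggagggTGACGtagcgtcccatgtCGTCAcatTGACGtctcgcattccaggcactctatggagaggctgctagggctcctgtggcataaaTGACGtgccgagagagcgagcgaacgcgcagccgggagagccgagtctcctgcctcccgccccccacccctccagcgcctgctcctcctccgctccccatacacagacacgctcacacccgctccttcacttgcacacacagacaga
At least 1 TGACG stands in 17.8% of the 32851 promoter windows of the same length, and in 25.5% of the 13612 windows of tested genes. At least 4 stand in 0.137% of the 32851. The full element TGACGTCA, which contains TGACG on both strands, stands in 1.55% of the 32851 windows and in neither the Nr4a1 nor the Nr4a3 window. The Nr4a1 and Nr4a3 promoters were picked for their copies from the searched promoters of named and listed genes, so the shares are not a test. A match describes the letters and is not evidence of binding.

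Nr4a1 (chromosome 15, 101254269 to 101274795, mm10) measured 31.2, 24.3, 38.4 and 53 CPM in IR edit 1 to 4 and 3.06, 3.19 and 2.89 CPM in Sham. The 6 unedited injured hearts held 2.98 to 6.11 CPM, so every edited heart was above every other heart. The log2 fold change against Sham was 3.59 ± 0.27 (adjusted p = 0.00118), and against the mean of IR and IR virus 3.24 ± 0.21 (adjusted p = 3.17e-06). Fosl2, a partner of Jun in AP-1, measured 53.2, 52.2, 63.7 and 89 CPM in IR edit and 22.4, 22.3 and 20.4 CPM in Sham (1.57 ± 0.18, adjusted p = 0.0059). Nr4a3 measured 9.53, 9.68, 18.3 and 27.1 CPM in IR edit and 2.45, 1.72 and 2.22 CPM in Sham (2.91 ± 0.40, adjusted p = 0.0127). Fos, the founding member of AP-1, measured 5.27, 3.58, 4.55 and 11 CPM in IR edit and 1.13, 0.947 and 0.71 CPM in Sham (2.70 ± 0.42, adjusted p = 0.0207). IR edit 4 was the highest edited heart for these 4 genes, and no edited heart overlapped with Sham. Without 1 heart at a time, Nr4a1 and Fosl2 passed in all 7 fits, while Nr4a3 missed in 2 and Fos in 3, with adjusted p up to 0.0693 and 0.0982. The calls of the list numbered 5, 2 and 2 without Sham 1, 2 or 3 and 5 without IR edit 2. Without IR edit 3, 14 rose and 1 fell.

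MAPK feedback genes, which damp growth factor signalling, rose in 5 of 15 cases: Errfi1, Etv5, Spry1, Spry4 and Dusp6. The count was 1 or 2 without any 1 of the Sham hearts or without IR edit 2 or 4, and 7 rose and 2 fell without IR edit 3. Etv5, a transcription factor of the pathway, rose by 1.09 ± 0.15 (adjusted p = 0.0127), and also in IR virus, by 0.81 ± 0.13 (adjusted p = 0.015). Errfi1, an inhibitor of the EGF receptor, measured 40.1, 29.6, 34 and 40.7 CPM in IR edit and 15.7, 16.6 and 16.9 CPM in Sham (1.13 ± 0.12, adjusted p = 0.00453). It did not overlap with the unedited injured hearts either (13.3 to 18.8 CPM). Cytosolic heat shock chaperones rose in 5 of 22 cases: Hspa1a, Hspa1b, Hsph1, Hsp90aa1 and Dnajb1. The count was 3, 2 and 1 without Sham 1, 2 or 3, 3 without IR edit 4 and 9 without IR edit 3. Hsph1, a co-chaperone of HSP70, measured 98.5, 91.7, 84.3 and 99.3 CPM in IR edit and 53.9, 64.5 and 60.6 CPM in Sham (0.64 ± 0.09, adjusted p = 0.0127). IR 3 alone reached 186 CPM of Hsph1 and 161 CPM of Hsp90aa1, while the other 5 unedited injured hearts held 53.1 to 65.3 CPM of Hsph1. Hspa1a, the inducible HSP70, rose by 2.97 ± 0.41 (adjusted p = 0.0127) from 0.388 to 0.473 CPM in Sham, and it and Hspa1b are near-identical copies whose counts are uncertain.

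Clock genes changed in both directions. The daily clock of heart cells runs on Arntl (BMAL1), Clock and Npas2, which drive Per, Cry and Nr1d genes and the outputs Dbp, Tef and Hlf, and the driven genes feed back on the drivers. Levels of these transcripts vary over the day. Of 21 tested, 2 rose (Arntl and Npas2) and 7 fell (Dbp, Per3, Nr1d2, Ciart, Tef, Per2 and Hlf), and in edgeR none passed in IR or in IR virus against Sham, where 1 and 3 were higher and 1 and 0 lower at an unadjusted p under 0.05. Against the mean of IR and IR virus, 6 were higher and 10 lower. The promoters of Ciart, a repressor of the clock, and of Per3 are shown because they hold repeated clock elements: 3 copies of the E-box CACGTG, through which BMAL1 acts, in Ciart (chr3:95882229-95882478, minus strand) and 2 copies of the D-box TTATGTAA, read by DBP, TEF and HLF, in Per3 (chr4:151044666-151044915, minus strand), in capitals in the RefSeq windows of 250 bases (GRCm38.p6).
Ciart: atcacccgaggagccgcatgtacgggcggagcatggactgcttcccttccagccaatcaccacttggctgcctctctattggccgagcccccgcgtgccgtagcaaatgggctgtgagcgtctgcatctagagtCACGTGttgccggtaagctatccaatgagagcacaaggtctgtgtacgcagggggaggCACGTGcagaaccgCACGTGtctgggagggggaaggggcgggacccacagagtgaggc
Per3: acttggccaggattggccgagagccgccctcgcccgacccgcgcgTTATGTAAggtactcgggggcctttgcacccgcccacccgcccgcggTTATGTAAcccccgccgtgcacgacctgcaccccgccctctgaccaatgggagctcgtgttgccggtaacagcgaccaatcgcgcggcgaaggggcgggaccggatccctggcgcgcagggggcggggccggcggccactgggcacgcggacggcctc
Searched on both strands, CACGTG stands at least once in 6.02% of the 32851 windows and at least 3 times in 0.0609%. TTATGTAA stands at least once in 0.819% and at least 2 times in 0.0183%. Among the 13612 windows of tested genes, CACGTG stands at least once in 8.09% and TTATGTAA in 0.485%. The Ciart and Per3 promoters were picked for their copies from the searched promoters of named and listed genes. The shares are therefore not a test, and a match is not evidence of binding.

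Dbp, a D-box activator (chromosome 7, 45705088 to 45710203, mm10), measured 7.09, 5.02, 7.66 and 4.01 CPM in IR edit and 28.7, 35.1 and 25.3 CPM in Sham. Every edited heart was below all other hearts, whose lowest value was 25.3 CPM. The log2 fold change was -2.33 ± 0.20 (adjusted p = 0.00118), and against the mean of IR and IR virus -2.68 ± 0.17 (adjusted p = 1.97e-06). Per3, a period gene, measured 13.4, 12.5, 20 and 12 CPM in IR edit and 67.9, 46.1 and 37.6 CPM in Sham (-1.82 ± 0.22, adjusted p = 0.00795). Ciart measured 2.34, 2.6, 2.48 and 2.31 CPM in IR edit and 10.6, 7.02 and 5.01 CPM in Sham (-1.64 ± 0.23, adjusted p = 0.0127). The edited hearts lay close together for Ciart, and none overlapped with Sham for either gene.

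On the driving side, Npas2 measured 7.94, 9.59, 6.57 and 10.2 CPM in IR edit and 1.96, 2.45 and 2.79 CPM in Sham (1.84 ± 0.19, adjusted p = 0.00453). Arntl measured 27.3, 27.7, 22.6 and 26.8 CPM in IR edit and 0.755, 6.24 and 8.33 CPM in Sham (2.38 ± 0.49, adjusted p = 0.0454). Sham 1 was far below the other Sham hearts for Arntl, and IR virus 2, at 1.43 CPM, was below the other unedited injured hearts (4.85 to 7.59 CPM). Sham 1 was also high in Per2, with 42.7 CPM against 19.9 and 14.3 CPM, while IR edit held 5.05, 5.2, 8.69 and 6.47 CPM. Without Sham 1 the Arntl difference still passed, and it missed without Sham 2 or 3 or without IR edit 1, 2 or 4, with adjusted p up to 0.13. Dbp, Per3 and Npas2 passed in all 7 fits with 1 heart left out, while the lower clock genes fell from 7 to 4 without Sham 2 or IR edit 2, and the higher ones from 2 to 1 without Sham 2 or 3 or IR edit 1, 2 or 4. Since no label gives the time of harvest, group and time of day cannot be told apart for these genes.

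**Figure D2:**
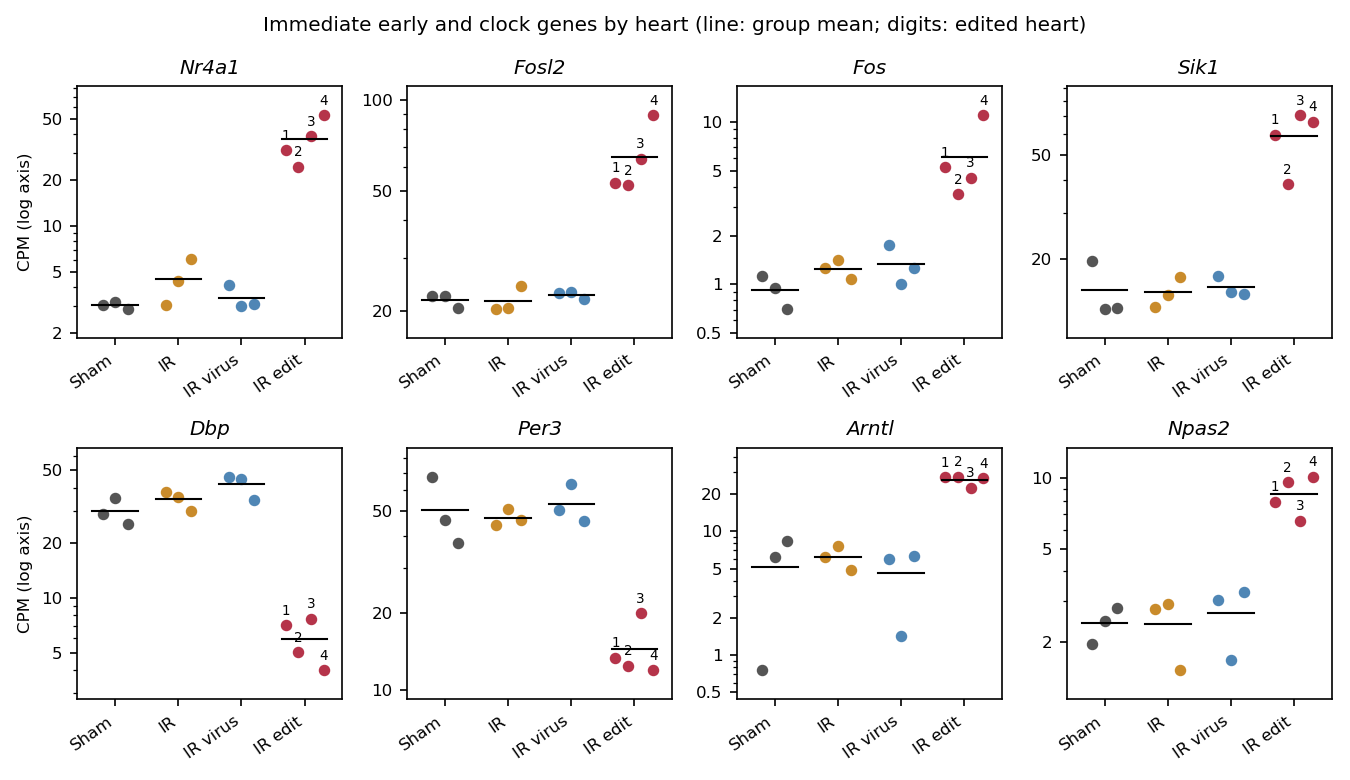
Levels of 3 immediate early genes and Sik1 (top) and 4 clock genes (bottom) in all 13 hearts, in CPM on a log axis. Each point is 1 heart, lines are group means and digits name the edited hearts. The 4 edited hearts lie together and outside all other hearts for each gene, and Sham 1 is the lowest point of Arntl at 0.755 CPM.

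Among the 10 higher genes with the smallest p, Sik1, a salt-inducible kinase, measured 59.6, 38.5, 70.8 and 66.8 CPM in IR edit and 19.7, 13 and 13.1 CPM in Sham (1.94 ± 0.22, adjusted p = 0.0059). Pnpla3, a lipid droplet enzyme, measured 6.12, 9.05, 7.35 and 7.12 CPM in IR edit and 1.51, 1.33 and 0.946 CPM in Sham (2.53 ± 0.21, adjusted p = 0.00118). Outside those 10, Cdkn1a, the cell cycle inhibitor p21, measured 26.2, 25.5, 18.3 and 39.4 CPM in IR edit and 7.4, 5.47 and 6.67 CPM in Sham (2.07 ± 0.24, adjusted p = 0.006). It was the 1 gene of 18 on the p53 list that passed. For these 3 genes no edited heart overlapped with any other heart, and each passed against the mean of IR and IR virus, by 1.95 for Sik1, 2.73 for Pnpla3 and 1.92 for Cdkn1a. Hcn4, a pacemaker channel named from the ion channel list, measured 23.3, 24.2, 22 and 17.8 CPM in IR edit and 12.5, 13.3 and 7.43 CPM in Sham. The groups did not overlap, and Hcn4 rose by 0.97 ± 0.19 (adjusted p = 0.04). It is also 1 of the 7 tested markers of the conduction system, whose summed level was 87.5 to 132 CPM in IR edit and 52.1 to 71.3 CPM in Sham. The part of that tissue in the result was not tested.

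Among lower genes, Sox7, an endothelial transcription factor, measured 15.2, 14, 13.2 and 14.7 CPM in IR edit and 24, 27.4 and 23.4 CPM in Sham (-0.81 ± 0.09, adjusted p = 0.0059). The unedited injured hearts lay near Sham at 21.5 to 24.8 CPM, and the difference from them was -0.68 (adjusted p = 0.000137). Ano10 is a membrane protein of the anoctamin family. It was the exception among the 10 lower genes with the smallest p, because it alone passed in all 3 injured groups. It measured 17.9, 15.5, 17 and 17.3 CPM in IR edit, 31.9, 31.9 and 33.1 CPM in Sham and 19.6 to 21.3 CPM in the unedited injured hearts. The log2 fold changes were -0.94 ± 0.08 in IR edit (adjusted p = 0.00118), -0.64 in IR (0.0075) and -0.66 in IR virus (0.00596). Its difference of -0.29 between edited and unedited hearts passed (adjusted p = 0.0248), and IR edit 1 to 4 varied little among themselves. Of the other lower genes, Mylk4 and Mlf1 had log2 fold changes of -0.32 and -0.31 in IR and -0.43 and -0.35 in IR virus, which did not pass. Dbp and Pik3ip1 had positive ones in both of these groups, which did not pass either.

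**Figure D3:**
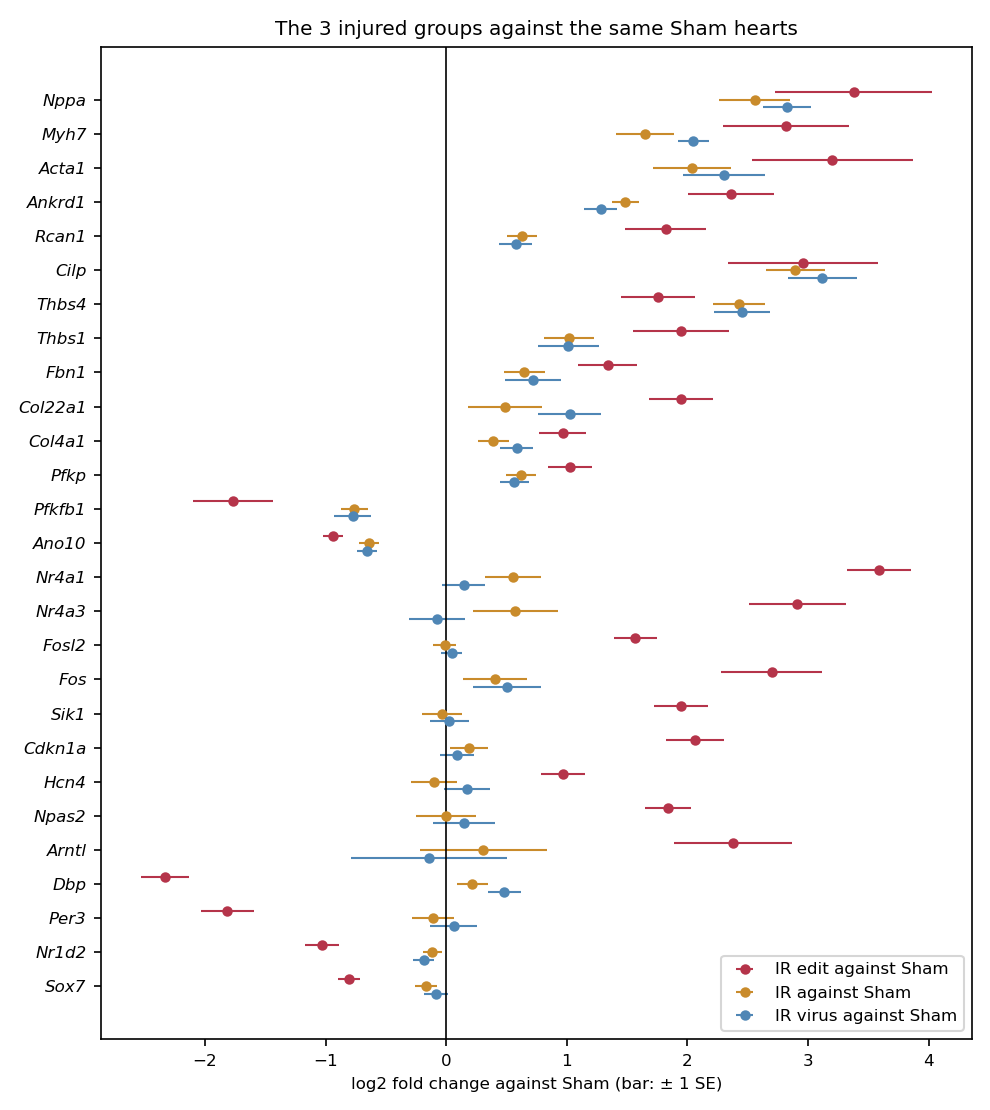
Log2 fold change against the same 3 Sham hearts (points, with bars of 1 SE) for 27 genes in IR edit, IR and IR virus. The stress and scar genes at the top are positive in all 3 groups, whereas Nr4a1 is 3.59 in IR edit against 0.56 and 0.14, and Dbp is -2.33 against 0.21 and 0.48.

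The spread within the edited group was measured as each heart's distance to its own group mean, as a root mean square over the 15148 genes on the log2 scale, multiplied by the square root of n/(n - 1) so that groups of 3 and 4 hearts compare. It was 0.266, 0.251, 0.342 and 0.308 for IR edit 1 to 4 and 0.294, 0.255 and 0.295 for Sham 1 to 3. IR edit 3 was farthest from its group mean of all 13 hearts, and the edited and Sham ranges overlapped. The difference of the group means, 0.0101, did not pass (exact two-sided permutation p = 0.714 over 35 splits, where the smallest possible p is 1 in 35). Against the other 9 hearts the edited hearts were farther from their mean by 0.0384 (exact two-sided permutation p = 0.0867 over 715 splits), and leaving out Sham 1, Sham 3 or IR edit 2 brought this p to 0.0283, 0.0283 and 0.0227, while leaving out IR edit 3 took it to 0.568. Over single genes, the median standard deviation (SD) of log2 CPM was 0.167 within IR edit and 0.164 within Sham, and the edited SD was the larger one for 7713 of 15148 genes. SDs here and below were not adjusted for groups of 4 and 3 hearts, and an SD from fewer hearts tends to be smaller.

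The spread was uneven over gene groups. It was wide in scar genes, where the median SD was 0.61 in IR edit and 0.27 in Sham and 39 of 45 members varied more in the edited hearts. The like held for cardiac stress genes (0.37 and 0.21, 19 of 20), collagens (0.39 and 0.24, 23 of 26), fat oxidation (0.24 and 0.09, 27 of 34) and respiratory chain subunits (0.14 and 0.07, 37 of 42), as a description without a test. Clock genes ran the other way, at 0.18 in IR edit and 0.36 in Sham, with 7 of 21 more variable in the edited hearts, as did macrophage and monocyte genes (0.29 and 0.41, 5 of 24). Each Sham heart was also set against the mean of the other Sham hearts. The list medians in Sham 1 to 3 were then 0.25, -0.06 and -0.33 for clock genes. For macrophage and monocyte genes they were 0.51, -0.40 and -0.15. The part of Sham 1 in these Sham SDs was not tested. The median SD was also lower in IR edit than in Sham for 6 other lists of the 27, among them muscle atrophy, glycolysis and mitochondrial regulator genes. By heart, the median of the scar list was 0.62, 1.31, 0.19 and 1.61 above the Sham mean (log2) in IR edit 1 to 4, and 0.45 to 1.21 in the unedited injured hearts. IR edit 3 was below and IR edit 2 and 4 above all 6 of them. The median of the immediate early list was 0.54, 0.66, 0.59 and 1.18 in IR edit and at most 0.19 in the unedited injured hearts, so IR edit 3 was not the lowest there.

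**Figure D4:**
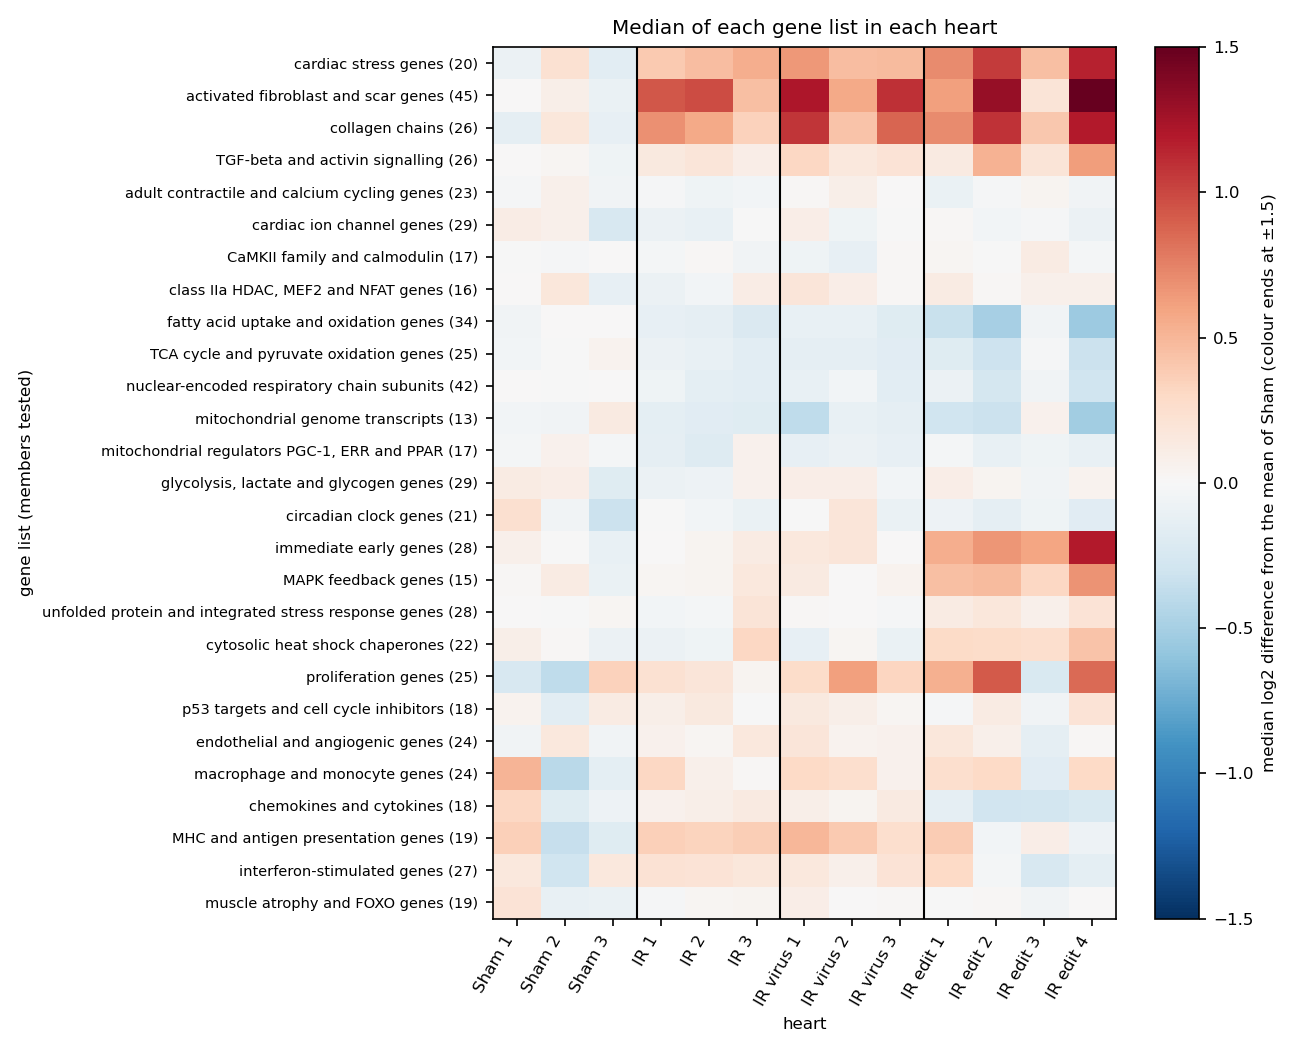
Median log2 difference from the Sham mean for 27 gene lists (rows, with the number of members tested) in 13 hearts (columns, black lines between groups). Each Sham heart is set against the mean of the other Sham hearts. The top 3 rows are strong in IR edit 2 and 4 and weaker in IR edit 3, whereas the immediate early row is raised in all 4 edited hearts.

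Counted by heart, genes at least 2-fold above the Sham mean numbered 227, 483, 170 and 630 in IR edit 1 to 4, and genes at least 2-fold below it 123, 331, 155 and 437. The 6 unedited injured hearts had 120 to 236 above and 97 to 151 below. The Sham hearts, each set against the mean of the other Sham hearts, had 79 to 192 and 128 to 184. IR edit 2 and 4 exceeded all other hearts in both directions. Among the 159 genes called higher, IR edit 4 was farthest from Sham for 111 and IR edit 3 nearest for 94. Among the 87 called lower, IR edit 4 was farthest for 60 and IR edit 3 nearest for 49.

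The 20 most variable genes within the edited group (mean of at least 5 CPM) included Nppa, Myh7, Acta1, Cilp, Postn and Comp, described above. Ltbp2, a binder of latent TGF-beta, measured 11.5, 31.7, 4.04 and 52.2 CPM in IR edit and 3.78, 3.27 and 1.51 CPM in Sham. Dio2, the enzyme that activates thyroid hormone, measured 4.97, 27, 5.17 and 42.1 CPM in IR edit and 1.36, 1.98 and 2.22 CPM in Sham. Ctgf, a matrix growth factor, measured 71.7, 229, 70.3 and 365 CPM in IR edit and 38.4, 38.6 and 49 CPM in Sham. For these 3 genes IR edit 2 and 4 were the high hearts and all edited hearts were above Sham, but none passed (adjusted p = 0.0704, 0.0613 and 0.077). The 20 genes were picked by a large SD in IR edit, which raises the SE in that test. Adamtsl2, a microfibril protein, measured 22, 42.9, 10.2 and 59.1 CPM in IR edit and 3.96, 5.25 and 3.17 CPM in Sham. It rose by 3.02 ± 0.53 (adjusted p = 0.0335), and was higher than in unedited injured hearts by 1.61 ± 0.34 (adjusted p = 0.018), although IR edit 3 lay within their range. Col6a6, a chain of collagen VI, and Kcnv2, a modifier of potassium channels, went the other way. Col6a6 measured 12.4, 3.9, 11.9 and 2.14 CPM in IR edit and 11.6, 14.6 and 12.2 CPM in Sham, so hearts 2 and 4 were low and hearts 1 and 3 at the Sham level. Myl7, an atrial light chain, measured 8.87, 21.6, 5.69 and 3.92 CPM in IR edit and 23.5, 22.3 and 1.56 CPM in Sham, where Sham 3 was the lowest of all 13 hearts. Ppia, Rnaset2b and mt-Co3 were also among the 20. These genes have near-identical copies, and how reads of the copies were counted was not examined.

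The 8 called genes that varied least within IR edit, from 109 called genes with at least 0.8 of log2 change and 5 CPM, were Sox7, Ano10, Cabp1, Ppp1r10, Cd28, Wif1, Mid1ip1 and Arntl. Wif1, a secreted inhibitor of Wnt signalling, measured 11.1, 9.59, 11.6 and 11.4 CPM in IR edit and 4.72, 6.11 and 3.97 CPM in Sham (1.14 ± 0.15, adjusted p = 0.0127). Mid1ip1, a regulator of fat synthesis, measured 38.8, 36.5, 40.8 and 32.7 CPM in IR edit and 115, 79.1 and 64 CPM in Sham (-1.21 ± 0.17, adjusted p = 0.0127). Neither overlapped with Sham, as held for all 246 called genes. The SD of Mid1ip1 was 0.14 in IR edit, by which it was picked. It was 0.43 in Sham, where Sham 1 was the high heart.

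**Figure D5:**
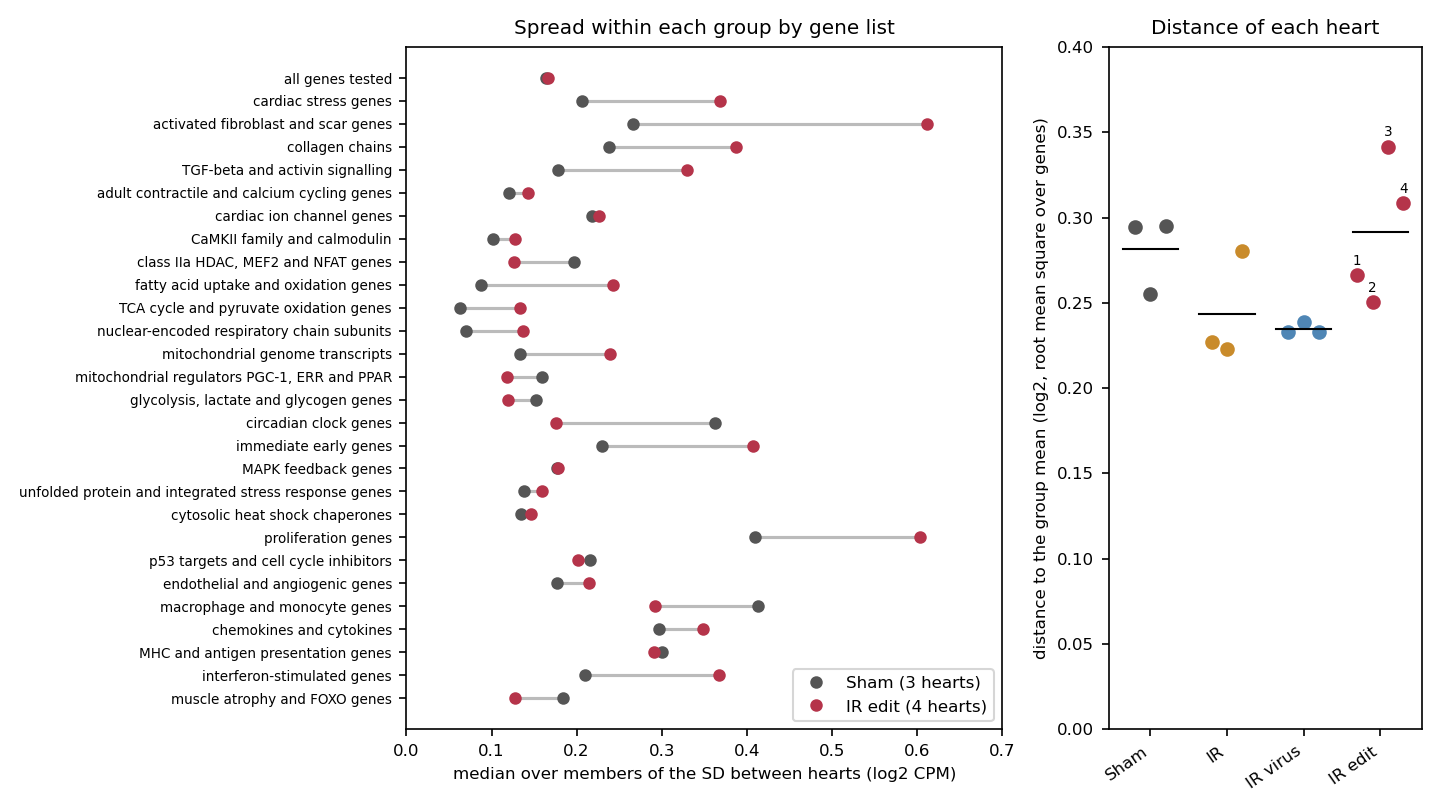
Left, the median SD between hearts (log2 CPM) over the members of each gene list, in Sham and in IR edit. Right, the distance of each heart to its group mean (log2, root mean square over genes), with lines for group means. Scar genes show the widest gap (0.61 and 0.27), all genes none (0.167 and 0.164), and IR edit 3 has the largest distance at 0.342.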

How the data were processed

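RNA from 13 whole mouse hearts was sequenced as poly(A)-selected libraries, and the deposited files hold raw counts per gene for 53278 genes. Per the submitters' processing notes the authors used FastQC 0.11.8, Trimmomatic 0.39, HISAT2 2.1.0, featureCounts 1.6.2 and mm10. No label or note names the annotation or the strand setting, so reads of overlapping or antisense genes could not be told apart. Counts were tested with edgeR 4.0.16 in R 4.3.3 (filterByExpr, TMM scaling, quasi-likelihood F-test, Benjamini-Hochberg adjusted p under 0.05), on the 7 hearts of IR edit and Sham. Alternatives used DESeq2 1.42.0, limma 3.58.1 and the settings listed in the closing section. Log2 CPM for spread used a prior count of 2. Both the test and the spread measure were tested on simulated data. Total counts ran from 20634820 to 27265276, and each of the 15 pairs of hearts within a group differed by more than sampling noise. Replicate numbers of Sham and IR edit hearts were checked, and the check could not decide whether they pair hearts. Members and gene lists were chosen with earlier results of these data known. Genes named were Camk2d, the 10 higher and 10 lower with the smallest p, up to 4 called per list, the 20 with the largest SD in IR edit (mean of at least 5 CPM) and the 8 called genes with the smallest SD (change of at least 0.8). Ppia, Rnaset2b, mt-Co3, Hspa1a and Hspa1b have near-identical copies, so their counts are uncertain. Promoters came from RefSeq. Some genes that the naming rule picked are not reported here.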

Additional observations from a re-analysis of the deposited data

Results flagged for a closer look

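In groups of 4 hearts, a heart is listed here when its gap to the nearest other heart, divided by the range of the group, is above Dixon's 95% critical value. Of 139 values checked in IR edit 8 met this, a share near the 1 in 20 that chance alone gives. IR edit 1 was highest for Lpar3, a receptor for lysophosphatidic acid (5.23 CPM, with the nearest edited heart at 3.96 CPM). It was also highest for mt-Co3 (85.5 CPM, with the nearest at 28.2 CPM). IR edit 3 was the listed heart for the other 6 values. It was highest for Mlf1 (134 CPM) and for the summed lymphatic endothelial markers (216 CPM). It was lowest for the endothelial receptor Flt4 (17.2 CPM), although Flt4 is itself among the lymphatic endothelial markers. IR edit 3 was also lowest for Arntl (22.6 CPM) and for the summed macrophage markers (163 CPM). The same held for the median log2 difference from Sham of macrophage and monocyte genes (-0.16). IR edit 3 was also the shallowest library and had the highest mitochondrial share of the edited hearts, and the part of either in these values was not tested.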

How the results depend on the processing

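The 246 genes of IR edit against Sham became 1485 with no filter on low counts, 1006 with DESeq2, 1257 in a fit of all 13 hearts, 1249 with limma voom and a weight per heart, and 37 to 1346 with 1 heart left out. The 115 of IR against Sham became 648, 255, 2 and 285 under the same 4 settings and 12 to 198 with 1 heart left out. For IR virus, 203 became 890 with no filter, 437 with DESeq2 and 2 in the fit of all hearts (18 to 254 with 1 heart left out). The 680 genes of IR edit against the mean of IR and IR virus became 1513 with no filter, 1754 with limma voom, 331 with the replicate block and 319 to 1066 with 1 heart left out. In the replicate block, IR edit against Sham gave 226 genes. Same-numbered Sham and IR edit hearts had correlations of 0.16, 0.014 and 0.079, and pairs with unlike numbers ran from -0.19 to 0.063. With so few pairs, this check cannot decide whether the numbers mark a pairing. The spread difference from Sham turned to -0.00368 with the median absolute deviation and ran from -0.0166 to 0.0296 with 1 heart left out (-0.0152 without Sham 2). Against the other 9 hearts it ran from 0.0117 to 0.0579. Log2 changes reversed for mt-Co3 (-0.13 with limma voom, and -0.36 to 0.71 with 1 heart left out) and Rnaset2b (-0.27 to 2.28, with -0.25 without Sham 2, -0.17 without IR edit 2 and -0.04 without IR edit 4), neither of them called. The cause was not tested. Of 62 named genes called, 21 passed in every fit with 1 heart left out and 37 in every other setting. With 3 Sham hearts, calls on variable injury genes are the least certain, and the design has no uninjured edited heart.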
